A study of Mus musculus with 8 samples.

Results

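The abundant NONCODE long noncoding features of the mouse heart were the 766 features with a NONCODE gene identifier (NONMMUG) chosen by a mean of at least 5 CPM over all 8 libraries. CPM is the number of counts on a feature per 1000000 counts on all features of its library. They were 766 of 87774 NONCODE features and of 141239 features in all. NONCODE is a catalogue of noncoding genes, most of them genes of long noncoding RNAs, and its version 5 was counted together with Ensembl genes. The mean over all libraries alone chose the members, so their level is a description. That mean does not fix the difference between the groups, but 217 members reached 5 CPM in the mean of the untreated group only and 29 in the mean of the treated group only, and members of both kinds were bound to differ in that direction.

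Long noncoding RNAs are transcripts without a long reading frame, and many stay in the nucleus, where some act on chromatin, splicing or transcription near their own gene. Lamins A and C, the products of Lmna, form a meshwork under the inner nuclear membrane and tether largely silent chromatin there. Loss of lamin A/C causes heart muscle disease in mice and people, and the study asked which long noncoding and coding RNAs depend on lamin A/C in the heart.

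RNA was sequenced from hearts of 2-week-old mice of a strain labelled mixed, and every group carried the Lmna knockout. The untreated group was labelled Lmna-/- and held 3 libraries (replicates 6, 7 and 8). The other group was labelled Lmna-/-:AAV9 Lmna WT and held 5 libraries (replicates 1 to 5). These hearts had received wild-type LMNA through an adeno-associated virus of serotype 9 (AAV9), a vector that enters heart muscle, and are called AAV9-LMNA below. No control vector and no wild-type heart was analysed here, so what LMNA did and what AAV9 alone did cannot be told apart. The sources used here do not give the promoter of the vector, and nothing there says that the libraries of a group came from separate animals, and p-values therefore rest on the spread among libraries, which may be technical in part. The files do not pair NONCODE identifiers with names, positions, lengths or sequences, and none is printed here.

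The libraries held 21439956 to 26492443 counts on features. Lmna, the check of the labels, was at 33.2 to 72.2 CPM in the untreated and at 226 to 739 CPM in the AAV9-LMNA libraries, with no overlap. The heart label was borne out by cardiomyocyte markers: all 10 were detected above 5 CPM, and their summed level was 56150 to 80311 CPM in the untreated and 64141 to 76775 CPM in the AAV9-LMNA libraries. Untreated replicates 6 and 8 and AAV9-LMNA replicate 1 stood apart. Untreated replicate 8 had 1163 CPM on 8 atrial markers, against 90.7 to 199 CPM in the other 7 libraries. Untreated replicate 6 had the lowest summed level of 6 fibroblast markers (1149 CPM, against 2086 to 3341 CPM elsewhere), of 6 endothelial markers (888 CPM, against 1151 to 1657 CPM) and of 8 macrophage markers (174 CPM, against 298 to 680 CPM). AAV9-LMNA replicate 1 had at most 0.177 CPM of the Y-linked genes Ddx3y, Kdm5d and Uty, which were at 28.7 to 151.5 CPM in every other library, so the AAV9-LMNA libraries were not all from 1 animal. In bulk RNA, fewer cells of a type and less RNA per cell cannot be told apart. Results without untreated replicate 6, or without replicates 6 and 8, are given below where they differ.

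Ensembl's own long noncoding genes were mostly empty in these tables. Of 12341 Ensembl long noncoding genes, 11543 (93.5%) were listed at 0 in all 8 libraries, against 17.5% of 21865 Ensembl coding genes and 47.1% of NONCODE features. Only 26 Ensembl long noncoding genes reached 5 CPM. Of 47 well-known long noncoding genes of a list, 41 were listed at 0 in every library, among them Malat1, Neat1, Meg3, H19, Gas5 and the cardiac transcript Mhrt. Xist was listed at 0 as well. Of that list 3 genes passed the filter on low counts and 0 were called by edgeR's quasi-likelihood test, by DESeq2 or by limma-voom, none of them at an unadjusted p under 0.05 either. Hand2os1, a noncoding gene beside the cardiac transcription factor gene Hand2, held 22.8, 16.01 and 11.3 CPM in untreated replicates 6, 7 and 8, against 9.27 to 16.4 CPM in the AAV9-LMNA libraries. A read that overlaps a gene of both catalogues is set aside as ambiguous in such counting, and ambiguous reads were 21.03 to 26.4% of the reads on features, outside them or ambiguous. Their part in the zeros was not tested.

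The abundant features together took fewer counts in the AAV9-LMNA hearts. Their summed level was 15782, 10322 and 11530 CPM in untreated replicates 6, 7 and 8. In AAV9-LMNA replicates 1 to 5 it was 8249, 7953, 8183, 8995 and 8221 CPM. Every untreated library was above every AAV9-LMNA library, with means of 12545 ± 2868 (SD, n = 3) and 8320 ± 395 (SD, n = 5) and a ratio of 1.51. This sum includes the 217 members at 5 CPM in the untreated mean only and the 29 in the AAV9-LMNA mean only. For the 520 members at 5 CPM or more in both group means the ratio was 1.43. Within NONCODE counts the picture was different. The 766 features held 38.4, 35.8 and 36.6% of the NONCODE counts in untreated replicates 6, 7 and 8, and 37.7 to 39.6% in the AAV9-LMNA libraries, and these ranges overlapped. These 0.873% of NONCODE features carried 35.8% or more of the NONCODE counts in every library. They were chosen by level, so a large share follows from the choice and its size from the threshold.

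Reads outside every feature moved with that sum. They made up 24.7, 16.8 and 18.4% of reads in untreated replicates 6, 7 and 8 and 12.1 to 12.8% in the AAV9-LMNA libraries, so that the 3 untreated libraries had the same order in both measures. The share of NONCODE features in all counts was 3.38% ± 0.642 (SD, n = 3) against 2.16% ± 0.0766 (SD, n = 5). The exact two-sided permutation test of the library labels, with 56 arrangements, gave p = 0.0179 for the reads outside features and for the NONCODE share, the smallest p this design allows, with an adjusted p of 0.0357 over 4 library measures. The part of reads outside features in the fall of the abundant features was not tested.

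**Figure D1:**
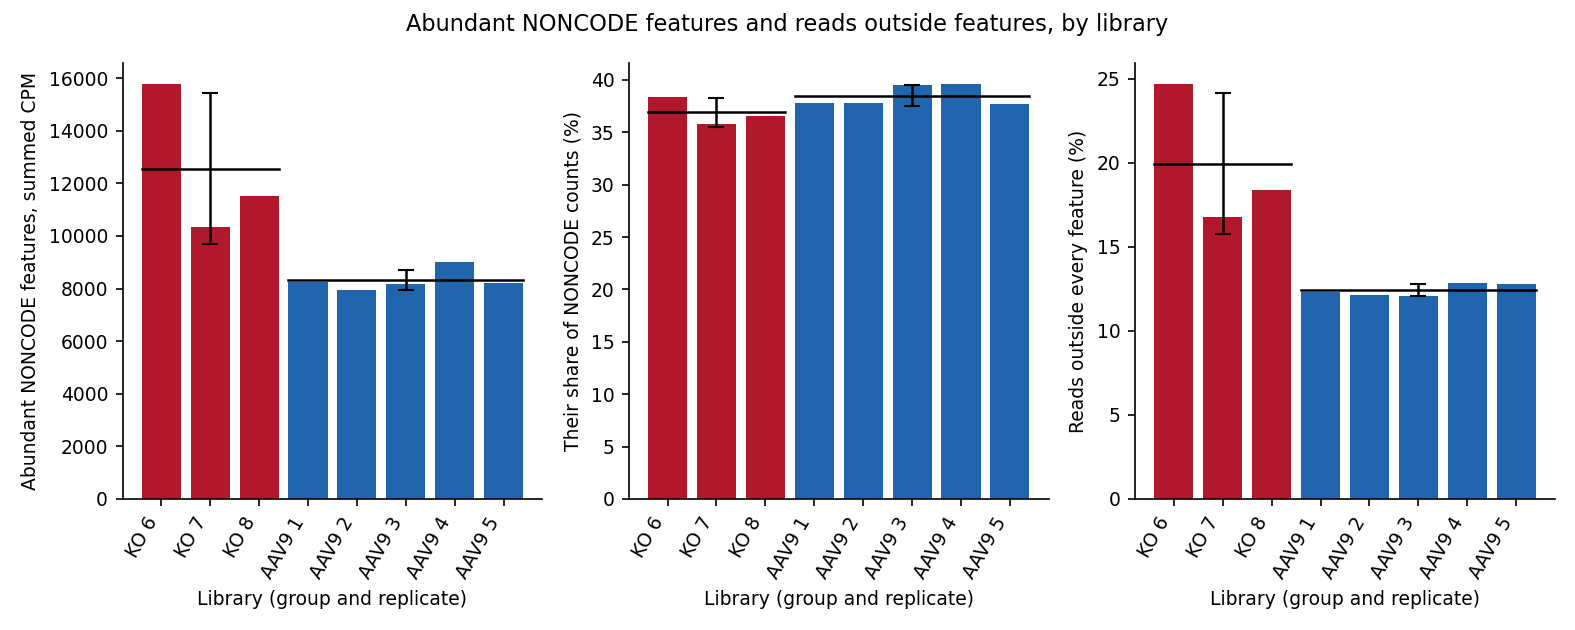
Summed CPM of the 766 abundant NONCODE features (left), their share of all NONCODE counts (middle) and the share of reads outside every feature (right) in each library; bars are libraries (red, untreated Lmna-/-, KO 6 to 8; blue, AAV9-LMNA 1 to 5), black lines are group means and whiskers 1 SD. The untreated sums of 10322 to 15782 CPM lie above the AAV9-LMNA sums of 7953 to 8995 CPM, while the shares of NONCODE counts, 35.8 to 39.6%, overlap.

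Feature by feature, scaled over all features, far more abundant NONCODE features were lower than higher in AAV9-LMNA hearts. Of 766 tested, 346 (45.2%) were lower, 31 (4.05%) higher and 389 not called (edgeR's quasi-likelihood test over 26717 features, p under 0.05 after Benjamini-Hochberg adjustment). Over all features tested, 15% were called lower, 10.6% higher and 25.7% in either direction. The median log2 fold change of the members was -0.55, against -0.61 for the 10695 tested NONCODE features under 5 CPM, 0.22 for 10026 tested Ensembl coding genes at 5 CPM or more, and -0.03 over all features. Of NONCODE features under 5 CPM, 25.6% were called lower and 1.11% higher. All 766 members passed the filter on low counts, the least covered of them with 919 counts over the 8 libraries.

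The threshold did not fix a direction for the 520 members that reached 5 CPM in both group means. Of these, 182 (35.0%) were lower and 22 (4.23%) higher, with a median log2 fold change of -0.36. The count also moved with untreated replicate 6, the library with the most reads outside features. Without it 221 (28.9%) were lower, with a median of -0.36, beside -0.02 over all features. Without untreated replicates 6 and 8 together the median was -0.24, beside -0.009 over all features. Fewer libraries can give fewer calls in any set of features. No share called over all features stands beside the counts of the reduced fits here and below, so these counts alone show no trait of the members. Without untreated replicate 8 alone 291 were lower and 22 higher, and without AAV9-LMNA replicate 1, 310 were lower and 25 higher. Leaving out AAV9-LMNA replicate 2, 3, 4 or 5 gave 256, 246, 283 and 276 lower members, with medians of -0.56, -0.55, -0.59 and -0.58. Leaving out untreated replicate 7 gave 417 lower members, with a median of -0.65. In the fit without untreated replicates 6 and 8 the lone untreated library is assumed to vary as the AAV9-LMNA libraries do. Of higher calls there were 17 with AAV9-LMNA replicate 3 left out, 20 with AAV9-LMNA replicate 4 left out and 18 with untreated replicates 6 and 8 left out, and 14 when the scaling was taken from Ensembl features alone, which moved the median of all features from -0.03 to -0.23.

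Scaled within NONCODE features, that is against the NONCODE counts of each library alone, 122 members were called lower and 130 higher. TMM scaling within NONCODE centres these features near 0 by construction. The 122 were 15.9% and the 130 were 17.0% of the 766 members, and 514 were not called (edgeR quasi-likelihood test, adjusted over 11104 NONCODE features). Over all NONCODE features tested, 7.94% were called lower, 8.1% higher and 16% in either direction. The median log2 fold change of the members was 0.02, against -0.02 over all NONCODE features tested. Among the 520 members at 5 CPM or more in both groups, 51 (9.81%) were lower and 107 (20.6%) higher. That cut was made on CPM over all features. It left out 217 members with 71 lower and 0 higher calls within NONCODE, and 29 with 0 lower and 23 higher. The excess of higher calls among the 520 thus depends on the cut and is no result about these members. The balance moved with the filter and with single libraries. Without a filter on low counts 164 of the 766 were lower and 92 higher, and without untreated replicate 6, 57 were lower and 88 higher. Leaving out AAV9-LMNA replicate 2 gave 67 lower and 96 higher members, and leaving out untreated replicates 6 and 8 gave 39 lower and 59 higher ones.

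The calls of both scalings were nested. Both fits use the same counts and differ mainly in scaling, so nesting and a lack of opposite calls are largely built in. All 122 members lower within NONCODE were also lower over all features, and the other 224 of the 346 were not called within NONCODE. All 31 members higher over all features were higher within NONCODE too, joined there by 99 that were not called over all features. No member was called in opposite directions, and 290 were called in neither. With the further condition that the CPM ranges of the groups did not overlap, 120 members were lower and 24 higher in both scalings. These were counted for the members only, so no share over other features stands beside them.

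**Figure D2:**
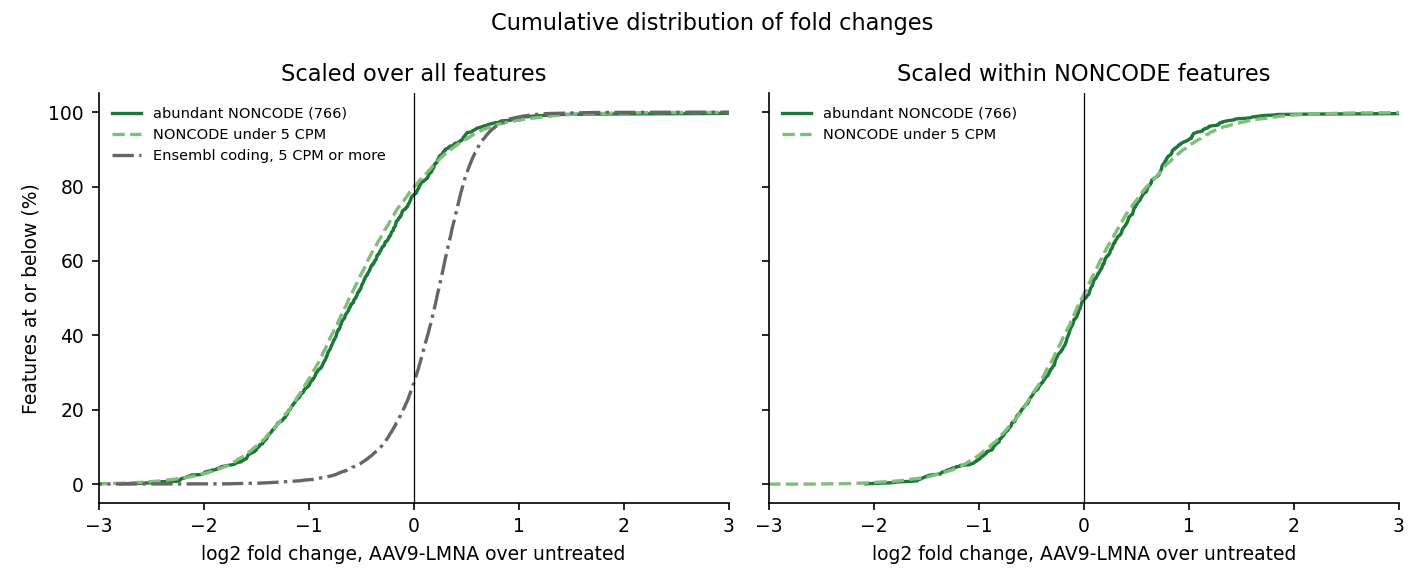
Cumulative share of features (percent, y axis) at or below each log2 fold change of AAV9-LMNA over untreated (x axis, drawn from -3 to 3), scaled over all features (left) or within NONCODE features (right). The abundant NONCODE features run beside those under 5 CPM in both panels, with medians of -0.55 and -0.61 on the left, and the coding genes lie to the right with a median of 0.22.

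Raw values gave similar counts without a model. In CPM, every untreated library was above every AAV9-LMNA library for 347 members (45.3%) and below for 28 (3.66%), against 19.5% and 9.16% of all features tested (28.6% in either direction). The 28 became 50 without untreated replicate 6 and 49 without untreated replicate 7. Leaving out a library can only keep or raise such counts, so these rises say nothing about that library. Among the 520 members at 5 CPM or more in both group means, 189 (36.3%) had every untreated library above and 18 (3.46%) every untreated library below. Scaled instead to the NONCODE counts of each library, 111 members (14.5%) had untreated libraries above and 149 (19.5%) below, against 10.4% and 9.98% of all NONCODE features tested (20.4% in either direction). By the same rule the 111 could only stay or rise, and became 189 without untreated replicate 7.

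Scaled over all features, lower calls outnumbered higher ones at every level, which was not so within NONCODE. The 497 members of 5 to 10 CPM had 233 lower (46.9%) and 20 higher (4.02%) calls over all features and a median log2 fold change of -0.61. The 178 members of 10 to 20 CPM had 73 lower (41.0%) and 6 higher (3.37%) calls with a median of -0.48. The 69 of 20 to 50 CPM had 27 lower (39.1%) and 3 higher (4.35%) with a median of -0.43, and the 22 of 50 CPM or more had 13 lower (59.1%) and 2 higher (9.09%) with a median of -0.71. Coding genes of the same 4 levels were called lower in 4.44, 4.73, 6.84 and 9.80% of cases and higher in 15.8, 22.5, 26.1 and 24.9%. The member counts include the 217 members at 5 CPM in the untreated mean only, with 164 lower and 0 higher calls over all features. They also include the 29 at 5 CPM in the AAV9-LMNA mean only, with 0 lower and 9 higher. The threshold fixed the direction of both kinds, and the levels were not split by group mean. Within NONCODE the members had 81 lower and 79 higher calls at 5 to 10 CPM, 24 and 32 at 10 to 20 CPM, 12 and 17 at 20 to 50 CPM, and 5 and 2 at 50 CPM or more. Levels of different features are compared here as reads and not per length, since lengths of NONCODE features were not used.

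**Figure D3:**
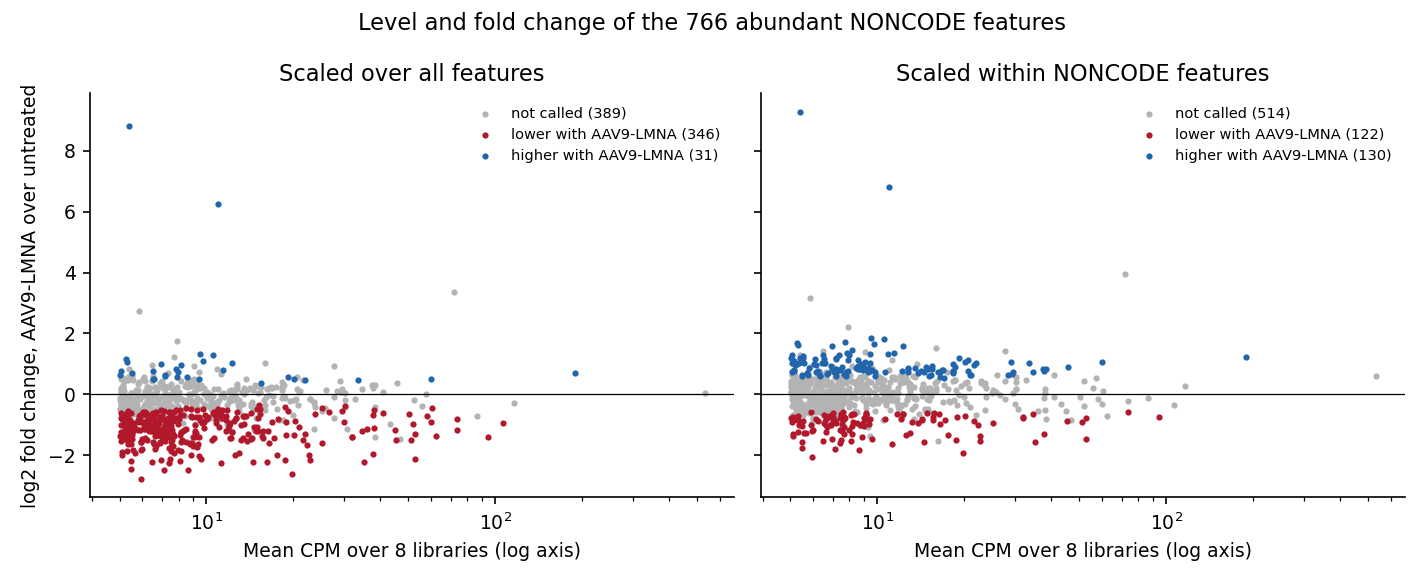
Log2 fold change of AAV9-LMNA over untreated (y axis) against the mean CPM over 8 libraries (x axis, log scale) for the 766 abundant NONCODE features, scaled over all features (left) or within NONCODE features (right); points are features, red lower and blue higher at an edgeR adjusted p under 0.05, grey not called. Lower calls number 346 on the left and 122 on the right, higher calls 31 and 130, at all levels.

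The 6 members with the most reads did not move together. NONMMUG016749.2, the member with the highest level, held 569, 559 and 487 CPM in untreated replicates 6, 7 and 8, against 327, 506, 619, 718 and 458 CPM in AAV9-LMNA replicates 1 to 5. The AAV9-LMNA libraries lay on both sides of the untreated ones, and the log2 fold change was 0.04 ± 0.21 (SE; edgeR adjusted p = 0.894). NONMMUG044358.2 went against most members. It held 127, 160 and 138 CPM in the untreated and 238, 240, 212, 224 and 169 CPM in the AAV9-LMNA libraries, with no overlap. Its log2 fold change was 0.69 over all features (edgeR adjusted p = 0.00580) and 1.23 within NONCODE (edgeR adjusted p = 0.00124), and the first call was lost without untreated replicates 6 and 8 (edgeR adjusted p = 0.0898).

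NONMMUG018993.2 held 128, 136 and 141 CPM in the untreated and 89.1, 128, 90.7, 107 and 109.9 CPM in the AAV9-LMNA libraries. AAV9-LMNA replicate 2 reached the level of untreated replicate 6, and the log2 fold change of -0.28 was not called (edgeR adjusted p = 0.0865). NONMMUG015736.2 was even among AAV9-LMNA libraries, with 78.2, 75.4, 76.5, 78.1 and 76.8 CPM, and held 211, 122 and 136 CPM in the untreated ones. The means were 156 ± 48.1 (SD, n = 3) and 77.0 ± 1.18 (SD, n = 5), and the log2 fold change was -0.95 ± 0.16 (SE) over all features (edgeR adjusted p = 0.00397). Within NONCODE that change, -0.35, was not called (edgeR adjusted p = 0.179), although the groups still did not overlap.

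The last of the 6, NONMMUG013006.2 and NONMMUG004767.2, had their highest library in the untreated group. NONMMUG013006.2 held 253, 88.0 and 129 CPM in untreated replicates 6, 7 and 8, against 45.0 to 73.5 CPM in AAV9-LMNA libraries, a log2 fold change of -1.39 (edgeR adjusted p = 0.0191) that became -0.51 and was not called without untreated replicates 6 and 8 (edgeR adjusted p = 0.369), nor without a filter on low counts (edgeR adjusted p = 0.0867). Its change within NONCODE, -0.76 (edgeR adjusted p = 0.0269), was not called in 5 of 15 alternative fits, among them the one without untreated replicate 6 (edgeR adjusted p = 0.21). NONMMUG004767.2 was highest in untreated replicate 8, with 126, 70.1 and 154 CPM against 46.2 to 98.9 CPM, and its ranges overlapped. The change of -0.70 on the log2 scale was not called (edgeR adjusted p = 0.111).

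**Figure D4:**
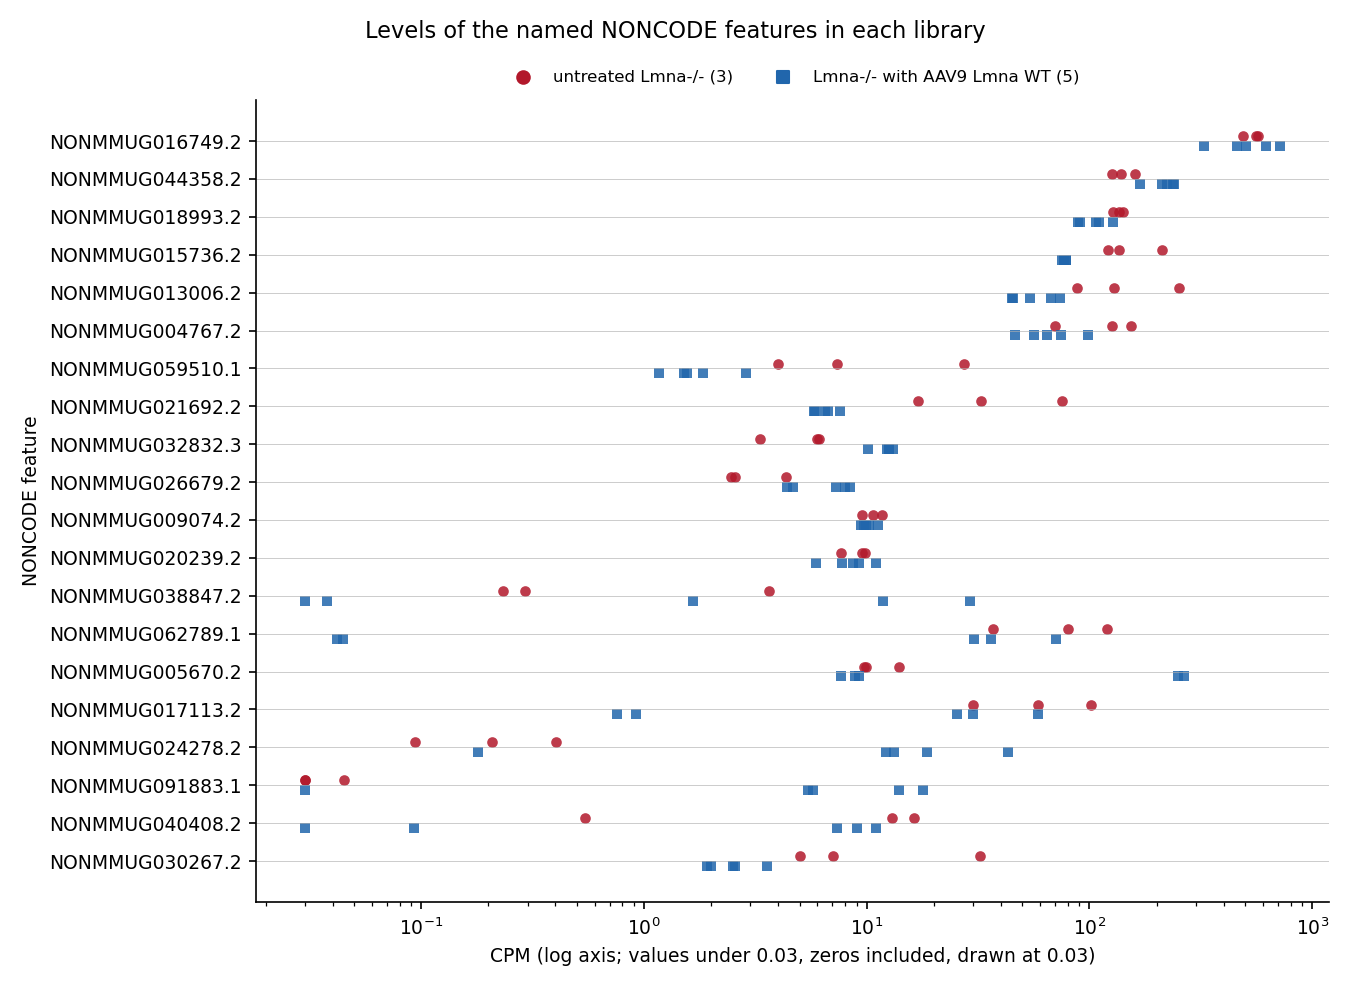
CPM (x axis, log scale, values under 0.03 and zeros drawn at 0.03) of each named NONCODE feature (y axis) in each library; red circles are the 3 untreated and blue squares the 5 AAV9-LMNA libraries. The top 6 rows are the members with the highest mean, where NONMMUG044358.2 is higher and NONMMUG015736.2 lower in every AAV9-LMNA library; the lower rows hold features with libraries of 1 group far apart.

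Among members called the same way under both scalings with separate groups in CPM, the largest falls were in NONMMUG059510.1 and NONMMUG021692.2. NONMMUG021692.2 held 75.6, 17.0 and 32.6 CPM in untreated replicates 6, 7 and 8, against 5.86, 6.72, 5.79, 6.49 and 7.62 CPM in AAV9-LMNA replicates 1 to 5. The lowest untreated library was thus well above the highest AAV9-LMNA library. The fall on the log2 scale was -2.62 ± 0.40 (SE) over all features (edgeR adjusted p = 0.00465) and -1.95 within NONCODE (edgeR adjusted p = 0.000543), and it stayed called in all 16 alternative fits over all features and all 15 within NONCODE. Its size rested on untreated replicate 6, which held 47.9% of its summed CPM: the change was -1.83 without that library and -1.27 without untreated replicates 6 and 8. NONMMUG059510.1 held 27.4, 3.99 and 7.32 CPM against 1.16 to 2.87 CPM, with 57.5% of its summed CPM in untreated replicate 6. Its log2 fold change of -2.79 (edgeR adjusted p = 0.0119) became -1.04 and was not called without untreated replicates 6 and 8 (edgeR adjusted p = 0.107), and it was not called without a filter on low counts either (edgeR adjusted p = 0.0574). Without untreated replicate 6 alone the change was -1.56. Within NONCODE it was -2.08 (edgeR adjusted p = 0.0352), a call lost in 6 of 15 alternative fits, limma-voom among them (adjusted p = 0.0568), and there the groups overlapped. This member reached 5 CPM in the untreated mean only, so the threshold fixed its direction and its p is no support for it.

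The largest rises by the same rule were in NONMMUG032832.3 and NONMMUG026679.2. NONMMUG032832.3 held 3.33, 5.96 and 6.11 CPM in the untreated and 12.6, 12.3, 13.2, 12.6 and 10.2 CPM in the AAV9-LMNA libraries. Its means of 5.14 ± 1.56 (SD, n = 3) and 12.2 ± 1.16 (SD, n = 5) gave a log2 fold change of 1.33 ± 0.21 (SE; edgeR adjusted p = 0.00325), which stayed called in all 16 alternative fits. NONMMUG026679.2 held 2.46, 4.35 and 2.57 CPM against 4.39, 7.96, 8.39, 7.29 and 4.66 CPM, so that untreated replicate 7 and AAV9-LMNA replicate 1 nearly met. Its log2 fold change of 1.15 (edgeR adjusted p = 0.0166) was not called without untreated replicate 8 (edgeR adjusted p = 0.053) or without untreated replicates 6 and 8 (edgeR adjusted p = 0.258). It reached 5 CPM in the AAV9-LMNA mean only, so its direction too was fixed by the threshold.

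The 2 members with the least change over all features were NONMMUG009074.2 and NONMMUG020239.2. NONMMUG009074.2 held 9.53, 11.7 and 10.7 CPM in the untreated and 9.41 to 11.2 CPM in the AAV9-LMNA libraries, a log2 fold change of 0.01 ± 0.13 (SE). Within NONCODE counts its untreated libraries were all below the AAV9-LMNA libraries, and its log2 fold change there was 0.54 (edgeR adjusted p = 0.0694). NONMMUG020239.2 held 7.67 to 9.84 CPM in the untreated and 5.95 to 10.98 CPM in the AAV9-LMNA libraries. At the threshold of 5 CPM, both members just inside had means of 5.00 and 5.01 CPM and log2 fold changes of 0.65 and -1.36, and both features just outside had means of 5.00 CPM and log2 fold changes of -0.22 and -0.73.

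At these members, untreated libraries differed more among themselves than AAV9-LMNA libraries did. The median coefficient of variation of a member was 29.1% in CPM over the 3 untreated and 15.4% over the 5 AAV9-LMNA libraries, and 600 of 766 members varied more in the untreated group. Untreated replicate 6 was the highest of the 8 libraries for 482 members (62.9%), replicate 8 for 98 and replicate 7 for 64. For 60 members untreated replicate 6 was at least 2-fold above every other library. These counts include the 217 members at 5 CPM in the untreated mean only, and a high untreated replicate 6 can bring a feature over the threshold. The same values over all features were not computed, and members share all libraries, so they are not replicates of this difference. Scaled to the NONCODE counts of each library, untreated replicate 6 was the highest library for 201 members and the lowest for 199, and the median coefficients of variation were 22.7% and 15.3%.

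Members with following identifier numbers had similar fold changes. There were 137 such pairs among 224 members, and across these pairs the Spearman correlation of the log2 fold change was 0.753, with a median difference of 0.24. Across 746 pairs of members 20 places apart in identifier order it was 0.0563, with a median difference of 0.66. These are descriptions across features that share all libraries and, within pairs, may share more. Both members had the same call in 109 of the 137 pairs, lower in 77 and higher in 0, and no pair had opposite calls. With 45.2% of members lower and 4.05% higher, shared calls are common and opposite ones rare in unrelated pairs too. Calls were not counted for the pairs 20 places apart. Given the similar fold changes within pairs, members are not separate measurements of the treatment. Whether following numbers lie side by side in the genome was not examined here.

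The 2 such pairs with the most reads differed in kind. NONMMUG015735.2 and NONMMUG015736.2 ran in parallel: the first held 133, 86.6 and 89.4 CPM in untreated replicates 6, 7 and 8, against 54.4 to 59.9 CPM in AAV9-LMNA libraries, a log2 fold change of -0.81 beside -0.95. NONMMUG016748.2, next to the most abundant member in number, held 30.9, 6.41 and 12.8 CPM against 2.69 to 6.61 CPM. Its change of -1.73 on the log2 scale was called (edgeR adjusted p = 0.0285), while that of NONMMUG016749.2 was 0.04. NONMMUG016748.2 reached 5 CPM in the untreated mean only, so the threshold fixed its direction and its p is no support for it. Its groups overlapped in CPM, and its change within NONCODE, -1.07, was not called (edgeR adjusted p = 0.0539). These 2 pairs were chosen after their values were seen.

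**Figure D5:**
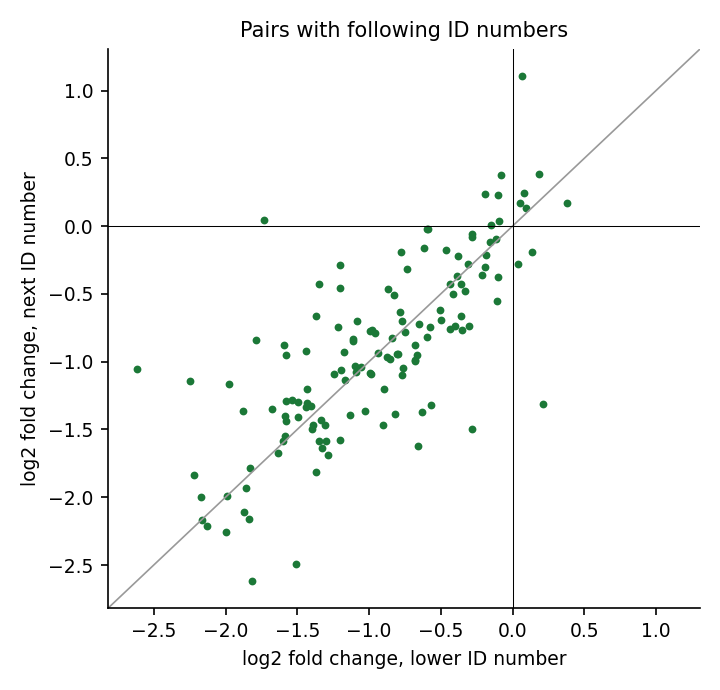
Log2 fold change of AAV9-LMNA over untreated, scaled over all features, in 137 pairs of abundant NONCODE features with following identifier numbers; x axis the lower number, y axis the next number, the grey line marks equal values. Most points lie near the line in the lower left, where both features of 77 pairs were called lower.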

How the data were processed

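The authors deposited raw counts of reads per feature for 8 heart libraries, whole numbers counted without strand over Ensembl and NONCODE version 5 genes. Per the submitters' processing notes the tools were TopHat2, HTSeq, edgeR and limma and the builds GRCm38 and mm10; the sources used here give no settings. Unstranded counting means that reads of overlapping or antisense features cannot be told apart. The 5 summary lines stayed out of library sizes and tests. Biotypes and symbols of Ensembl genes came from GENCODE M21.

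edgeR 4.0.16 in R 4.3.3 gave the main results: filterByExpr by group, TMM scaling, a robust quasi-likelihood model of the group alone, all 8 libraries, Benjamini-Hochberg adjustment at 0.05. It was run over all features (26717 tested) and over NONCODE features alone (11104 tested), and was tested on simulated counts. A positive log2 fold change means higher with AAV9-LMNA; CPM values use the total count on features. limma 3.58.1 (voom) and DESeq2 1.42.0 were alternatives, with RLE factors, no factors, Ensembl scaling, 2 other filters, libraries left out and 4 other member rules.

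The members and lists were chosen with earlier results of these data known. Named features were the 6 with the highest mean, the 2 largest rises and 2 largest falls called in both fits without overlap, the 2 nearest no change, the 2 with the largest share in 1 library, and the 2 on each side of the threshold; others were chosen after their values were seen.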

Additional observations from a re-analysis of the deposited data

Results flagged for a closer look

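A gap test was applied to the 5 AAV9-LMNA libraries for 35 values of the report. It asks whether 1 library's distance to its nearest neighbour is over 0.71 of the group's range, which chance gives in about 1 of 20 groups. It found 3 values. The summed level of the abundant NONCODE features was 8995 CPM in AAV9-LMNA replicate 4, against 7953 to 8249 CPM in the other 4. NONMMUG032832.3 was at 10.2 CPM in AAV9-LMNA replicate 5, against 12.3 to 13.2 CPM, still above the untreated libraries. Lmna was at 739 CPM in AAV9-LMNA replicate 5, against 226 to 373 CPM.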

How the results depend on the processing

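No paired analysis was possible because the groups share no replicate numbers. The direction of the median over all features held in each alternative run. Without untreated replicates 6 and 8, 13.1% of members were lower and 2.35% higher over all features (median -0.24), and 5.09% and 7.70% within NONCODE (median 0.10); in CPM 13.2% had the untreated library below, and within NONCODE counts 26.9% above and 33.8% below, with 1 untreated library left. With Ensembl scaling 1.83% were higher (median -0.76). With members of at least 2 CPM 2.36% were higher over all features. With both group means at 5 CPM the medians were -0.36 and 0.20, 9.81% were lower within NONCODE and 8.65% had untreated libraries above there. The values within NONCODE depend on that cut, which was made on CPM over all features. The median within NONCODE, near 0 by construction, was 0.054 at a minimum of 1 CPM in 3 libraries, -0.10 with no filter, 0.088 and -0.015 at member thresholds of 10 and 2 CPM, and 0.17 with a median of 5 CPM. The share of NONCODE counts follows the member rule: 24.0, 59.5, 33.2 and 30.5% (untreated) and 25.6, 60.6, 35.9 and 33.4% (AAV9-LMNA) for thresholds of 10 and 2 CPM, a median of 5 CPM and both group means at 5 CPM.

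Leaving out 1 library each gave 28.9 to 54.4% lower, 2.22 to 5.87% higher and medians of -0.65 to -0.36 over all features, and 7.44 to 21.4% lower, 11.5 to 21.8% higher and medians of -0.0031 to 0.053 within NONCODE. Separate groups were 45.6 to 60.7% above and 3.92 to 6.53% below in CPM, and 15.4 to 24.7% and 19.97 to 28.1% within NONCODE counts. The ratio of sums was 1.31 to 1.64, and the share of NONCODE counts 36.2 to 37.5% (untreated) and 38.2 to 38.7% (AAV9-LMNA). The cause of these shifts was not tested. For named features and both scalings, 544 alternative values stayed on the same side of the threshold, 61 lost a call and 15 gained one.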

Other observations

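Several abundant NONCODE features were present in some libraries and nearly absent in others of the same group. In 7 members the sorted values of log2(CPM + 1) had a gap of at least 2 between neighbouring libraries, a description made after the values were seen. In 1 of them, NONMMUG030267.2, untreated replicate 6 stood alone at 32.2 CPM, against 1.93 to 7.09 CPM elsewhere. In the other 6 it was not 1 library that stood alone. NONMMUG062789.1 was at 0.0444 and 0.0416 CPM in AAV9-LMNA replicates 1 and 4 and at 30.3 to 119.5 CPM in the other 6 libraries. NONMMUG017113.2 had the same pair of low libraries, at 0.754 and 0.916 CPM, against 25.4 to 101.8 CPM.

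NONMMUG024278.2 and NONMMUG091883.1 shared another pattern. NONMMUG024278.2 was at 42.9, 13.2, 12.2 and 18.6 CPM in AAV9-LMNA replicates 1 to 4, but at 0.179 CPM in AAV9-LMNA replicate 5, as low as in the untreated libraries (0.0933 to 0.404 CPM). NONMMUG091883.1 was at 5.42 to 17.9 CPM in AAV9-LMNA replicates 1 to 4 and had 0 counts in AAV9-LMNA replicate 5, with 1 count over the 3 untreated libraries. edgeR called both higher (adjusted p = 0.0327 and 0.0264), the 2 largest log2 fold changes among the members. Both reached 5 CPM in the AAV9-LMNA mean only, so the threshold fixed their direction and these p-values are no support for it. Neither was called by limma-voom (adjusted p = 0.45 and 0.476), without a filter on low counts (edgeR adjusted p = 0.0882 and 0.082), or without untreated replicate 6 (edgeR adjusted p = 0.141 and 0.131).

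NONMMUG005670.2 was at 266 and 249.5 CPM in AAV9-LMNA replicates 3 and 4 and at 7.66 to 13.9 CPM in the other 6 libraries. Its log2 fold change of 3.35 was not called by edgeR (adjusted p = 0.176) and was called by DESeq2 (adjusted p = 0.0354). NONMMUG040408.2 was at 7.36 to 16.3 CPM in 5 libraries and at most 0.541 CPM in untreated replicate 6 and AAV9-LMNA replicates 3 and 5. NONMMUG038847.2 had the largest share of its summed CPM in 1 library, 62.1% in AAV9-LMNA replicate 1 (29.0 CPM), with 11.9 CPM in AAV9-LMNA replicate 3 and at most 3.63 CPM elsewhere.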
